A study of Mus musculus with 2 samples.

Results

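Costimulatory and coinhibitory receptors of regulatory T cells (Treg) were read from 2 expression arrays, 1 for each of 2 Stat3 genotypes. The receptors were the products of 10 genes: Ctla4, Cd28, Icos, Pdcd1 and Btla of the CD28 family, and Lag3, Tigit, Havcr2, Cd5 and Cd200. Every probe set that the platform annotation pairs with exactly 1 of these symbols was taken, which gave 12 of the 45101 probe sets on the array. These 12 probe sets read 9 of the 10 genes. No probe set was paired with Tigit, so that gene has no value here, and no member was read by a probe set of several symbols. All 9 lay in both arrays above log2 5, the level below which signals were treated as unordered.

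Treg are CD4 T cells that restrain immune responses under the control of Foxp3, and Stat3 is the transcription factor that carries the signals of cytokines such as IL-6 and IL-10. Spleens and lymph nodes of females 6 to 8 weeks old gave the cells, which were obtained by fluorescence-activated sorting. The array named fl/wt came from donors labelled Foxp3 Cre/wtS Stat3 fl/wt, in which 1 Stat3 allele was floxed, and the array named fl/fl from donors labelled Foxp3 Cre/wtS Stat3 fl/fl, in which both were. The series' design text writes the Foxp3 genotype of the fl/fl donors as Cre/wt. Both groups thus carried Cre driven from the Foxp3 locus together with at least 1 Stat3 allele that it can delete. Foxp3 is X-linked, so in heterozygous females only the Treg that use the Cre-bearing X express Cre. The sources used here do not state whether the sort selected those cells or how many mice were pooled for a sample.

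T cells need a signal from costimulatory receptors beside that of the antigen receptor. CD28 and ICOS provide it by recruiting PI3-kinase, and CTLA-4 competes with CD28 for the ligands CD80 and CD86. PD-1, BTLA, LAG-3, TIGIT and TIM-3 (the product of Havcr2) dampen T cell responses after binding their own ligands. Treg are known for high surface and intracellular amounts of CTLA-4, which removes CD80 and CD86 from antigen-presenting cells.

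Promoters are shown for the CD28 family members of highest and lowest signal. They were searched for a core that NFAT factors bind, marked below, and for a STAT element, which had no match. The sequences are the 250 bases before the RefSeq gene start (build GRCm38.p6, gene strand). Capitals mark each match to GGAAA, the core that NFAT factors bind, read on either strand (TTTCC on this one).
Ctla4, chr1:60908775-60909024, plus strand: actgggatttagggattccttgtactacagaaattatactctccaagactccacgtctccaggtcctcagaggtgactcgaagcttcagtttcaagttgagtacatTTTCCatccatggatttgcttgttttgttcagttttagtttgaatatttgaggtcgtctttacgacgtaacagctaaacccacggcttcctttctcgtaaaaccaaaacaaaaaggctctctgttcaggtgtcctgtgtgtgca
Pdcd1, chr1:94052554-94052803, minus strand: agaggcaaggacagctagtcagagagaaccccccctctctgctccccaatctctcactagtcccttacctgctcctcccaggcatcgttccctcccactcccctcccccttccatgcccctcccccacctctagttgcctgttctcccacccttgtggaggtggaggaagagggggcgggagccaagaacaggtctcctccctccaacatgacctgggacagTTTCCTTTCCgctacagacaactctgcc
The Ctla4 match began 144 bases before the start, and the Pdcd1 pair adjoined each other at 28 and 23 bases before it. Such a match was present in 3 of the 7 member promoters in the table (Ctla4, Pdcd1 and Tigit) and in 55.6% of all 32851 promoters of the same length. TTCNNNGAA, the palindromic element that STAT dimers bind, had no match in any of the 7 (Ctla4, Pdcd1, Havcr2, Tigit, Btla, Cd200 and Cd5), and was present in 7.02% of all promoters. For Tigit, Btla, Cd200 and Cd5 the table's start is not the outer end of the gene as RefSeq lists it, so those windows lie before another annotated start. TTCNNNGAA reads the same on both strands, and its letters can overlap a GGAAA match. A match describes letters only, and none in this window says nothing of binding elsewhere.

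The receptors were read at nearly equal signal in both genotypes. Of the 9 genes, 1 differed by at least 0.25 on the log2 scale (1.19-fold), namely Lag3, which was higher in fl/fl. Over all 9774 genes measured the same way, 5.79% differed by as much, so a count of 1 in 9 is not set apart from that share. The 7 receptor genes with a mean level of log2 9 or more differed by -0.043 to 0.059. In direction, 5 receptor genes were higher and 4 lower in fl/fl, against 47.5% of all genes higher. The median difference was 0.029 for the receptors and -0.0045 for all genes. Each genotype had a single array, so no spread between replicates could be measured, no difference has a test, and all are given as description.

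**Figure D1:**
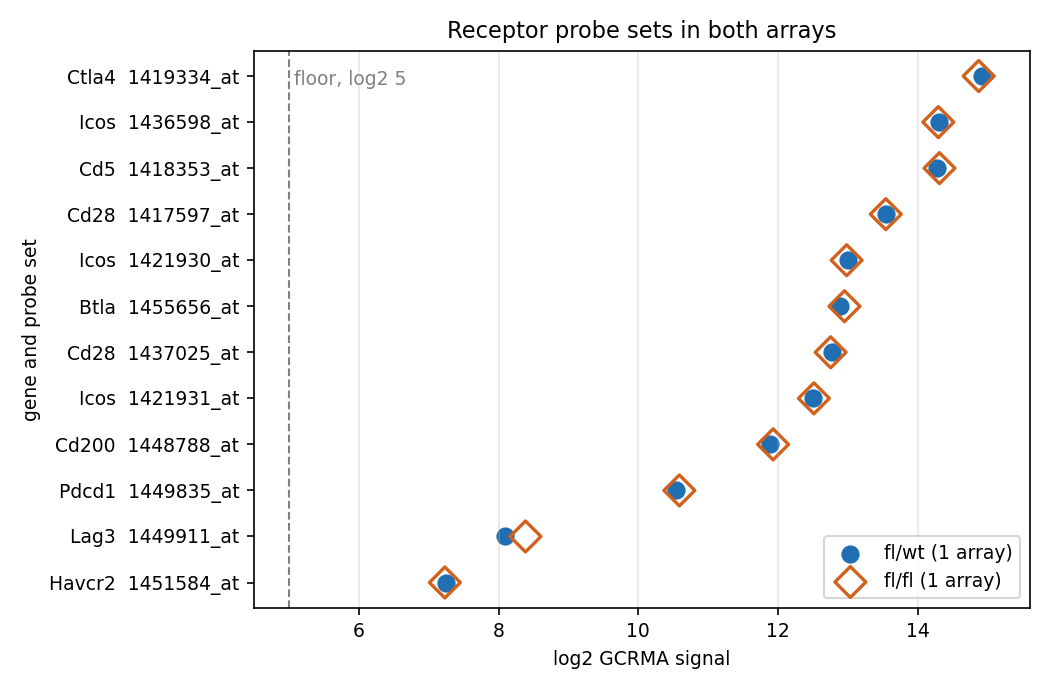
Log2 GCRMA signal (x axis) of each of the 12 receptor probe sets (y axis) in the fl/wt array (filled circles) and the fl/fl array (open diamonds), with 1 array per genotype and no error bars. The circle and the diamond nearly coincide for every probe set except that of Lag3, at 8.10 in fl/wt and 8.39 in fl/fl.

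Ctla4, an inhibitory receptor, had the highest signal of all 9 genes. Its fl/wt signal was 14.91 and its fl/fl signal 14.87, which makes a difference of -0.043. That signal placed Ctla4 at rank 117 of the 9774 measured genes in fl/wt and at rank 123 in fl/fl.

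Icos, the inducible costimulator, was read by 3 probe sets. The brightest stood at 14.30 in fl/wt and 14.29 in fl/fl, the second at 13.00 and 12.98, and the dimmest at 12.49 and 12.51. Their differences were -0.010, -0.020 and 0.017, so the sign was not shared. Between themselves the 3 probe sets spanned 1.81 on the log2 scale in fl/wt and 1.78 in fl/fl.

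Cd28, the primary costimulatory receptor, was read by 2 probe sets. The brighter read 13.54 in both arrays with a difference of -0.0019, and the other 12.76 in fl/wt and 12.75 in fl/fl with a difference of -0.013. The 2 probe sets of this gene thus lay 0.78 apart in fl/wt, far more than either differed between genotypes.

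Btla, which binds the TNF receptor family member HVEM, stood at 12.89 in fl/wt against 12.95 in fl/fl. Its difference of 0.059 had the largest size within the CD28 family. Pdcd1, which encodes PD-1, stood at 10.54 in fl/wt against 10.59 in fl/fl and so differed by 0.047. PD-1 is low on resting T cells and induced through the antigen receptor. Pdcd1 had the lowest signal of the family in both arrays, and whether the state of activation bears on that was not tested.

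Outside the family, Cd5 gave the highest signal. Cd5, a scavenger-type receptor that tunes antigen receptor signals, had a signal of 14.28 in the fl/wt array and of 14.31 in the fl/fl array, a difference of 0.029. Cd200, a surface ligand that restrains myeloid cells through CD200R, read 11.89 and 11.93, a difference of 0.040. Both were slightly brighter in fl/fl, by less than 0.05.

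Lag3 and Havcr2 were the dimmest. Lag3, a CD4-related receptor that binds MHC class II, stood at 8.10 in fl/wt against 8.39 in fl/fl. The difference of 0.29 (1.22-fold) rested on a single probe set. Dim genes differed more between these arrays: among the 1979 genes with a mean level from log2 7 to 9, 12.5% differed by at least 0.25 in either direction and 5.56% were higher in fl/fl by as much. Havcr2, at a similar level, stood at 7.24 in fl/wt against 7.23 in fl/fl and so differed by -0.013.

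**Figure D2:**
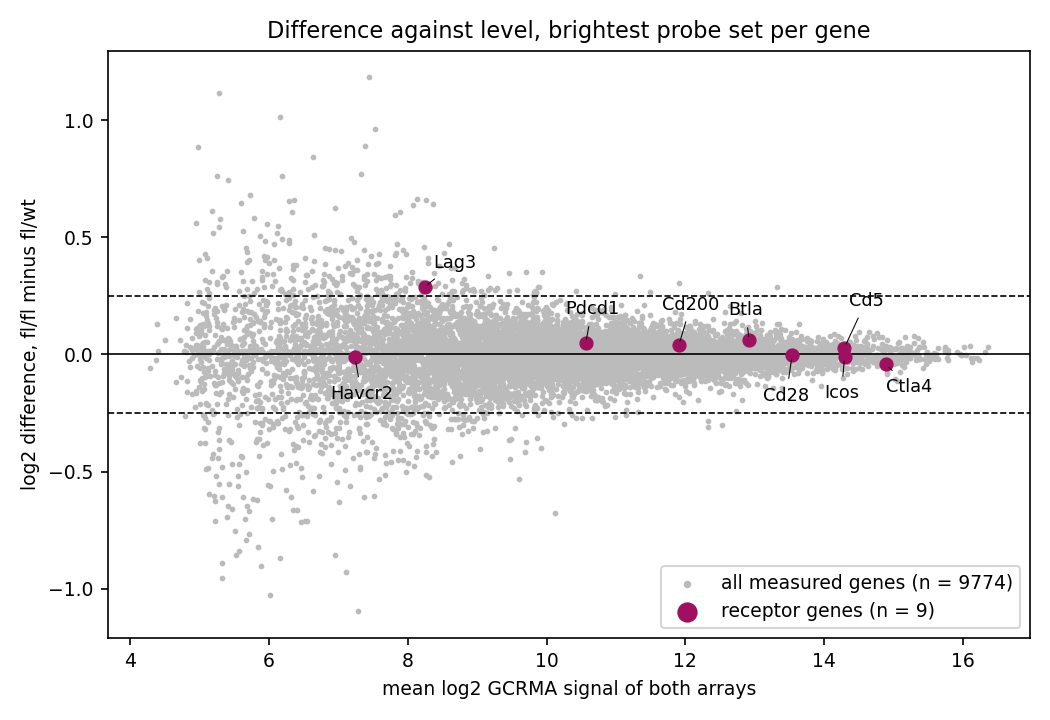
Difference on the log2 scale, fl/fl minus fl/wt (y axis), against the mean log2 signal of both arrays (x axis), for the brightest probe set of each measured gene (grey, n = 9774) and of the 9 receptor genes (magenta, labelled). Dashed lines stand at a difference of 0.25 in either direction. Lag3 lies just above the upper line at 0.29, where grey points spread widely, and the other 8 genes lie near 0.

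For the 6 receptor genes at log2 11 or more, the comparison with genes of like level was close. None of the 6 differed by 0.1, and 7.52% of the 3525 genes at that level did. Their median size of difference was 0.034, against 0.032 for all genes of that level. The receptors of high signal therefore differed about as much between the arrays as other genes of high signal.

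The order of the genes by signal was Ctla4, Icos, Cd5, Cd28, Btla, Cd200, Pdcd1, Lag3 and Havcr2 in fl/wt. In fl/fl it was the same, except that Cd5 stood above Icos by 0.016, where Icos had stood above Cd5 by 0.022. Within the CD28 family both arrays gave Ctla4, Icos, Cd28, Btla and Pdcd1. Among the other receptors both gave Cd5, Cd200, Lag3 and Havcr2. Probe set signal depends on how well the probes bind as well as on RNA amount and is not per length, so this is an order of signals and not of transcript numbers.

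Most neighbours in this order were closer than probe sets of 1 gene usually are. Across 4228 genes with at least 2 measured probe sets, the 2 brightest lay a median of 1.497 apart. Of the 8 steps in the receptor order, 7 were smaller than that in each array. The exception was the step from Pdcd1 to Lag3, of 2.44 in fl/wt and 2.20 in fl/fl. The step from Ctla4 to the next gene was 0.61 in fl/wt and 0.56 in fl/fl, within that spread.

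Several receptor genes are neighbours in the RefSeq annotation. Cd28, Ctla4 and Icos follow each other on chromosome 1 with no other protein-coding gene between them, and their brightest probe sets differed by -0.0019, -0.043 and -0.010. Btla and Cd200 adjoin on chromosome 16, with differences of 0.059 and 0.040. Lag3 adjoins Cd4 on chromosome 6, which differed by -0.061 where Lag3 differed by 0.29. Cd5 adjoins its relative Cd6 on chromosome 19, at 0.029 and 0.0016.

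Ligands and counter-receptors were read for 14 of 15 listed genes, and 8 reached log2 5 in at least 1 array. Of these, 4 were higher and 4 lower in fl/fl, with a median of -0.0070, and none differed by 0.25, where each gene is read by its brightest probe set. The galectins Lgals9 (12.58 in fl/wt and 12.55 in fl/fl), reported to bind TIM-3, and Lgals3 (11.87 in both) gave the highest signals. Cd274, which encodes the PD-1 ligand PD-L1, differed by -0.024, and Pvr, a TIGIT ligand, by 0.016, with other Pvr probe sets on both sides of 0. Cd200r1, the receptor for CD200, differed most, from 6.82 to 7.05 (0.23), while its other measured probe set differed by -0.036. Icosl, Tnfrsf14 (HVEM), Nectin2, Nectin3, Fgl1 and Ceacam1 were under log2 5 in both arrays.

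Other co-receptors had 11 measured members of 14 listed, 5 higher and 6 lower in fl/fl, with a median of -0.019. Cd2, the adhesion receptor for CD48, had 14.94 in fl/wt against 14.87 in fl/fl, and Vsir, which encodes the checkpoint receptor VISTA, read 13.05 and 13.07. Cd160, a further HVEM receptor, was higher in fl/fl by 0.22 (8.41 against 8.19), and its other probe set by -0.034. Ly9 and Cd96 had the largest negative differences, at -0.14 and -0.089. None of the 11 differed by 0.25 on its brightest probe set, while a dimmer one of Cd244a differed by -0.28 and one of Lair1 by -0.25.

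The listed signalling partners, such as kinases and adaptors, had 13 measured members of 15, with 5 higher and 8 lower and a median of -0.0061. Prkcq, the protein kinase C isoform of the T cell synapse, differed by -0.052 and the Src kinase gene Fyn by -0.0031. Grap2, the adaptor GADS, was the only one of these past 0.25 on its brightest probe set, with 7.14 in fl/fl against 7.46 in fl/wt (-0.32), and its other probe set went the opposite way by 0.18. Carmil2, a scaffold for CD28 signals, differed by 0.14 with its other probe sets at 0.11 and 0.26. Gab2 differed by 0.048 and Akt1 by -0.12. Dimmer probe sets of Pik3cd, a PI3-kinase catalytic subunit, differed by -0.59 and 0.31 where its brightest differed by -0.079. A dimmer probe set of Pik3r1, a regulatory subunit, differed by -0.27 and its brightest by -0.044.

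Phosphatases and other negative partners had 13 measured members of 13, with 4 higher and 9 lower and a median of -0.024. Ppp2ca and Ppp2r1a, subunits of the phosphatase PP2A, gave the highest signals and differed by 0.029 and -0.0094. Rasa1 differed by 0.071 and Inpp5d, the lipid phosphatase SHIP-1, by 0.031. Dok1, an adaptor that restrains Ras, differed by -0.20 and Csk, the kinase that inhibits Lck, by -0.11. None of the 13 differed by 0.25.

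Genes of receptor trafficking, shedding and mRNA decay had 13 measured members of 13, with 8 higher and 5 lower and a median of 0.0068. Lrba, which protects CTLA-4 from lysosomal breakdown, was higher in fl/fl by 0.058, and by 0.13 on a second probe set. Rc3h1, the RNA-binding protein Roquin-1 that limits Icos mRNA, differed by -0.18 (11.45 in fl/fl against 11.63 in fl/wt), while Icos differed by -0.010. Lax1 differed by 0.11, the clathrin adaptor gene Ap2a1 by -0.081, and the brightest of the list, Rab11a and Ap1m1, by 0.029 and -0.021. None of the 13 differed by 0.25 on its brightest probe set, while a dimmer one of Rc3h2, the relative of Rc3h1, differed by -0.33.

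**Figure D3:**
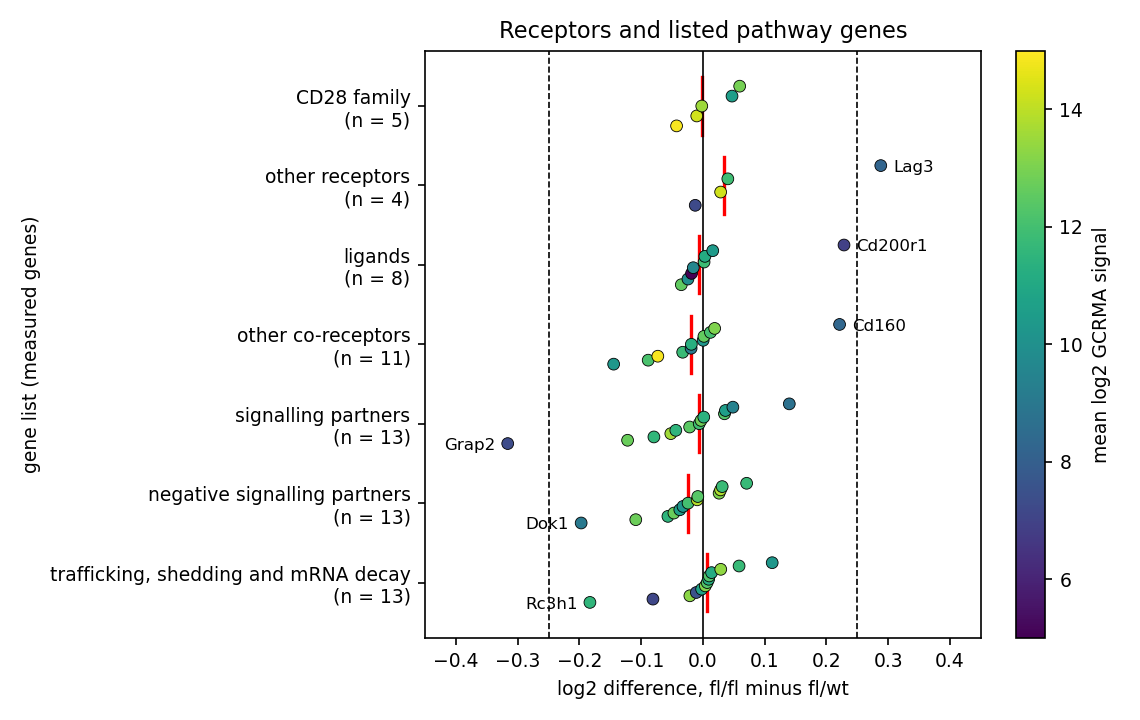
Difference on the log2 scale, fl/fl minus fl/wt (x axis), for each measured gene of the receptor groups and pathway lists (y axis, 1 point per gene, ordered within a list by difference), coloured by mean log2 signal. Red bars are list medians and dashed lines stand at 0.25 in either direction. Lag3 (0.29) and Grap2 (-0.32) alone lie outside the dashed lines, and both are dim.

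Across all 58 measured pathway genes, 26 were higher and 32 lower in fl/fl, with a median of -0.0072. Of them 1.72% (1 gene) differed by 0.25, against 5.79% of all genes measured. These shares are not matched for level. Among all genes, 256 of 982 at a mean level of log2 5 to 7 differed by 0.25, and 247 of 1979 at 7 to 9. At 9 to 11 it was 48 of 3234, and at 11 or more 9 of 3525. Most pathway genes lay at 9 or more, so their lower share is not read as a result about the pathway. Of the 51 other measured probe sets of pathway genes, 7 (of 6 genes) differed by as much. The 5.79% is for brightest probe sets and is not a like share for these. The share over all such other probe sets was not computed, so nothing is read from this count. Joined with the receptors, 4 of 67 genes differed by at least 0.2: Lag3, Cd200r1, Cd160 and Grap2. Of all genes measured, 8.82% differed by as much. All 4 had a mean level under log2 9, as did 9 of the 67, and 24.2% of all genes under that level differed by at least 0.2. Where a second probe set was measured (Cd200r1, Cd160 and Grap2), it went the opposite way, and Lag3 had none.

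The labelled cell type was set against its markers. The 5 T cell markers with a probe set read from 12.27 to 14.23 in fl/wt, and 4 of 5 Treg markers lay above log2 5, with Il2ra at 13.45 and 13.35. In neither array did the single Foxp3 probe set reach log2 5. Of the 4 Stat3 probe sets, 3 were measured, and the largest difference was -0.083. Their position with respect to the deleted exons is unknown here, so they do not check the labels.

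Markers of other cells that carry some of the same receptors were also read. In bulk RNA, fewer cells of a type and less RNA per cell cannot be told apart. Macrophages express Havcr2, Cd86 and Cd200r1, and 7 of 8 macrophage and monocyte markers were measured, with Csf1r at 13.99 and 14.002, C1qa at 13.83 in both and Itgam under log2 5. Summed over all 8, Itgam included, they reached log2 15.88 in fl/wt against 15.87 in fl/fl. The T cell markers with a probe set summed to 15.91 and 15.93. The part of macrophages in the levels of Havcr2, the ligand genes and the other genes read here was not tested. Those levels are therefore levels of the sorted sample and cannot be assigned to Treg alone. CD8 T cells and NK cells express Lag3, and 4 of 5 such markers were measured. The signal summed over all 5 was 9.78 in fl/wt and 9.90 in fl/fl. Cd8b1 differed by 0.27 and Cd8a by -0.028, and Ncr1 was under log2 5 in both. The part of these cells in the Lag3 difference was not tested. Siglech, a marker of plasmacytoid dendritic cells, which also express Lag3, was under log2 5 in both arrays, and 1 of 5 dendritic markers was measured (Itgax, 6.81 and 7.01). B cells express Btla and Cd200, and 4 of 7 B cell markers were measured. The signal summed over all 7 was 10.76 in fl/wt and 10.69 in fl/fl. Endothelial and stromal markers had 1 of 7 measured (Pecam1, 7.97 and 8.05), and red cell markers 1 of 3 (Alas2, 6.26 and 5.97).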

How the data were processed

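Per the labels' protocols, Trizol RNA of the sorted Treg was turned into biotinylated cRNA, and Affymetrix arrays were used. The values are log2 signals made with GCRMA, per the submitters' processing notes; the sources used here do not state its version, its settings or whether other arrays were normalised together with this pair. The deposited values ran from 0.53 to 16.9, from which the log2 scale was inferred. GCRMA pulls dim probe sets to a low end without order.

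The platform annotation named the probe sets, giving 34958 of them 1 symbol. The probe set of highest mean signal stood for its gene. Values under log2 5 were set to 5, and genes under 5 in both arrays got no difference. Differences are fl/fl minus fl/wt. Counts use 0.25 on the log2 scale unless another size is named, and the share of all genes past the same size is given in the text for the receptors and for the pathway genes as a whole. The members, lists and thresholds were chosen with earlier results of these data known. All members are named, and for each pathway list the 2 genes of highest signal and the 2 largest differences in each direction, provided both arrays reached log2 5; genes under that level and the marker, chromosome-neighbour and receptor-specific examples were added for context. Scripts used Python 3.11.15, numpy 2.4.6 and pandas 2.3.3 and were tested on simulated data. The number of arrays limits the precision.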

Additional observations from a re-analysis of the deposited data

How the results depend on the processing

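The values were recomputed with floors of log2 4 and 6, no floor, 32 added on the linear scale, the mean over all probe sets, leaving out probe sets with suffixes that mark shared or variant transcripts, median centring and quantile normalisation. Over these 8 settings, each of the 9 receptor genes kept the sign of its difference. None of the 72 values moved by as much as 0.12. That is the spread of fl/fl minus fl/wt between the 2 brightest probe sets of a gene. It was taken as the SD over 4228 genes of the gap between their 2 differences, divided by the root of 2. This SD is larger than the difference of every receptor gene except Lag3, so staying under it does not show that the others were stable. Havcr2, for example, ran from -0.027 to -0.010. Many of the 72 could not move, because all 9 genes lay above every floor and no receptor probe set carried a suffix. The mean over probe sets can alter only Cd28 and Icos. Only the added 32, median centring and quantile normalisation could alter the value of every receptor gene. Lag3 ran from 0.26 to 0.29 and Ctla4 from -0.043 to -0.033. The count of receptor genes past 0.25 was 1 under all 8, which was fixed in advance for the floors and the suffix rule. With a size of 0.1 the count was also 1, where 2618 of all 9774 genes differed by as much. At 1.5-fold it was 0, where 63 of the 9774 did, since the largest receptor difference was 1.22-fold. As the mean over measured probe sets, 2 genes changed place in the order, Cd5 moving above Icos. The median of the other co-receptors was -0.058 as the mean over all probe sets, dim ones included, and the cause was not tested; the other 39 list medians moved by less than that SD divided by the root of the number of genes. The median of all genes was -0.0045 as reported, -0.0029 with median centring and -0.0010 with quantile normalisation. It was already small as reported, so scaling could shift it little. No paired analysis was possible because each genotype has 1 array, and no array could be left out.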
